A study of Mus musculus with 9 samples.

Results

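RNA levels of 10 Hippo pathway genes were followed through the mouse heart around birth: the coactivators *Yap1* and *Wwtr1* (which encodes TAZ), the DNA-binding partners *Tead1* and *Tead3*, the kinases *Lats1* and *Lats2* with the adaptor *Sav1*, the cofactor *Vgll4*, and the target genes *Ctgf* and *Cyr61*. They were picked by symbol from the 48820 genes of the deposited table, and all 10 were found, *Ctgf* and *Cyr61* under their newer symbols *Ccn2* and *Ccn1*. RNA of 9 hearts of untreated wild-type (WT) C57BL/6J mice was sequenced, 3 labelled as biological replicates on each of embryonic day 18.5 (E18.5d), postnatal day 1 (P1d) and postnatal day 7 (P7d), all labelled male. By label the groups carried no allele, transgene or treatment and differed in age alone, and the sources used here do not say whether a replicate was 1 heart or several. The values are FPKM, fragments per kilobase of transcript and per 1e6 mapped fragments, so levels of different genes can be set side by side per length.

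In the Hippo pathway a kinase cascade, MST1 and MST2 (*Stk4* and *Stk3*) with the adaptor SAV1, then LATS1 and LATS2 with MOB1, phosphorylates YAP and TAZ and so keeps them in the cytoplasm. Unphosphorylated YAP and TAZ enter the nucleus and bind TEAD proteins, which sit on DNA and switch on genes such as *Ctgf* and *Cyr61*, whereas VGLL4 competes with them for TEAD. In the heart the pathway is known for holding back the division of cardiomyocytes, and YAP is needed for the growth of the foetal heart. Its activity is set largely by phosphorylation and by where the proteins are in the cell, which RNA levels do not show.

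Some facts of the libraries touch what follows. *Xist*, which is made from an inactive X chromosome, stood at 58.0 to 97.0 FPKM in E18.5d replicates 1 and 3 and P7d replicates 2 and 3, and in these 4 hearts 4 Y-linked genes were listed at 0, against the label. In the other 5 hearts, all P1d hearts among them, *Xist* was at most 0.11 FPKM. Stage and sex were thus partly mixed, and the main changes are given below also without these 4 hearts, which leaves 1 heart each at E18.5d and P7d. Depth, read from the steps between low FPKM values, came to 25.5 to 38.0 times 1e6 fragments at E18.5d, 27.75 to 29.75 at P1d and 37.0 to 45.75 at P7d. At full exon length, each of the 10 genes would then rest on an estimated 918 to 35338 fragments in a heart. The depth fit took 304 to 328 bases off the length, which would make these counts lower. The median gene changed by -0.17 (log2 scale) at P7d against E18.5d, by -0.06 at P1d against E18.5d and by -0.09 at P7d against P1d. Scaling the columns by median of ratios brought these medians to 0.01, 0.01 and 0.02, and scaling to an equal sum to -0.21, -0.21 and 0.02. The FPKM of P1d replicate 2 summed to 1794160, those of the other hearts to 1347981 to 1520448. An equal sum thus lowered P1d replicate 2 the most. Among all genes past the threshold, 25.3%, 40.02% and 35.1% were higher at the later stage with the deposited scale. With median of ratios these shares were 55.5%, 51.6% and 56.4%, with quantile normalization 49.8%, 50.9% and 51.3%, and with an equal sum 22.1%, 19.95% and 56.02%. All 7 cardiomyocyte markers looked at, among them *Myh6*, *Tnnt2* and *Ttn*, were high in every heart, with a sum of at least 25189.7 FPKM.

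The 10 genes covered a wide range of levels. At E18.5d *Ctgf* was the highest, with a mean of 71.3 ± 5.51 FPKM (SD, n = 3 hearts, as in all means below), followed by *Tead1* with 54.4 ± 2.80 FPKM and *Yap1* with 33.6 ± 2.06 FPKM. *Vgll4* with 28.3 ± 0.705 FPKM and *Wwtr1* with 26.5 ± 1.45 FPKM came next, and their hearts overlapped. *Cyr61*, *Lats2* and *Sav1* could not be separated, at means of 18.4, 18.3 and 18.3 FPKM. *Lats1*, at 7.89 ± 0.106 FPKM, and *Tead3*, at 6.67 ± 1.13 FPKM, were the lowest at this stage. At P1d the order was altered by *Cyr61*, whose mean of 54.1 ± 14.2 FPKM then lay beside that of *Tead1*, at 50.2 ± 5.41 FPKM, with overlapping hearts, and by *Wwtr1*, whose hearts all lay above those of *Yap1*. *Tead3* and *Lats1* also changed places without overlap of their hearts, which left *Lats1* the lowest at P1d. At P7d the means of *Ctgf* (70.7 FPKM) and *Tead1* (53.7 FPKM) were again the highest, with overlapping hearts, and *Tead3* was the lowest.

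**Figure D1:**
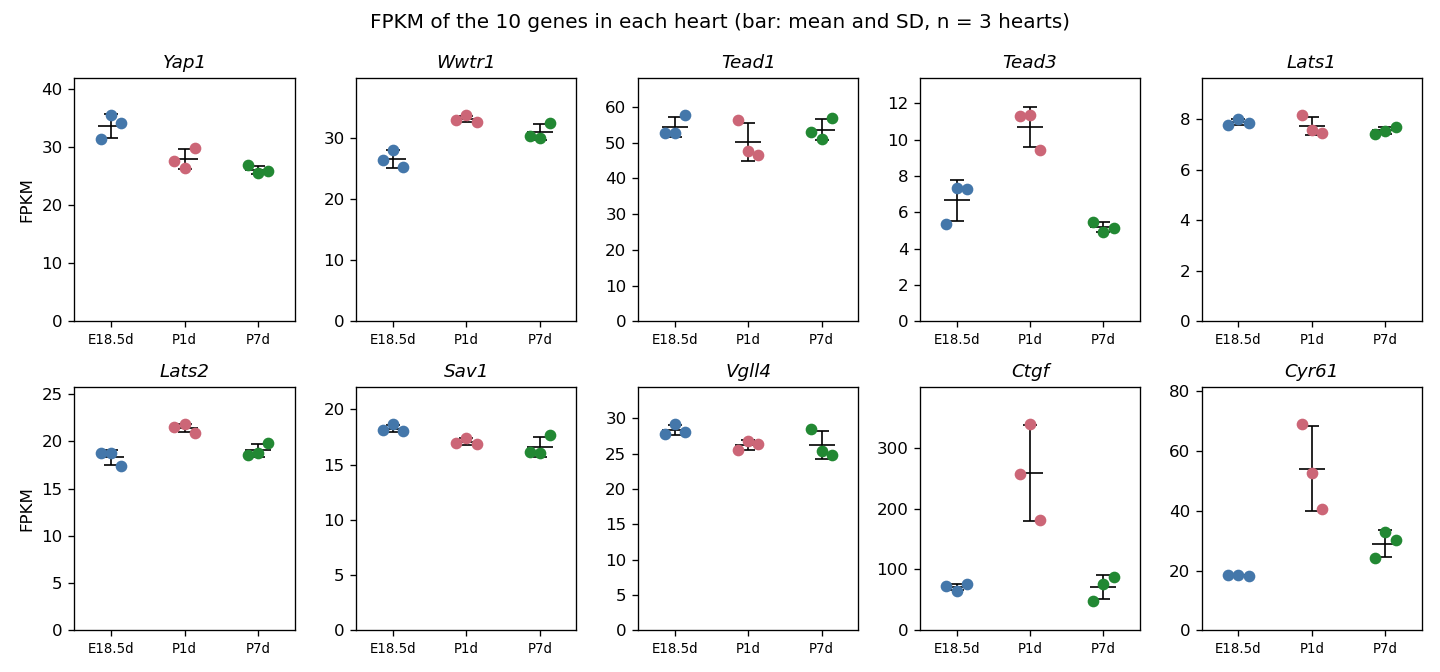
FPKM (y axis, from 0) of the 10 genes in each of the 9 hearts by stage (x axis), with points for hearts and bars for the mean and SD of 3 hearts. *Ctgf* and *Cyr61* stand highest at P1d, *Tead3* likewise on a smaller scale, *Yap1* is highest at E18.5d, and *Lats1*, *Sav1* and *Vgll4* vary little.

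*Yap1*, on chromosome 9 (GRCm38, chr9:7931999-8004596, minus strand), was highest in the E18.5d hearts, at 31.4, 35.4 and 34.1 FPKM. The P1d hearts held 27.6, 26.4 and 29.9 FPKM and the P7d hearts 26.9, 25.4 and 25.9 FPKM. Every postnatal heart was below every E18.5d heart, while the P1d and P7d hearts overlapped. *Yap1* fell by 16.8% at P1d (log2 change -0.26 ± 0.067 SE, limma, adjusted p = 0.0115) and 1.29-fold from E18.5d to P7d (log2 change -0.35 ± 0.067, adjusted p = 0.00205). Relative to the median gene these changes were -0.20 and -0.18. The call at P7d did not hold with median of ratios (log2 change -0.15, adjusted p = 0.0962), and that at P1d did not hold without E18.5d replicate 2 (adjusted p = 0.0505). Without the 4 hearts with *Xist* the values were -0.33 and -0.39 (adjusted p = 0.157 and 0.202).

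*Wwtr1*, the gene of the YAP paralog TAZ (chr3:57455649-57575910, minus strand), went the other way. Its level was 26.3, 28.01 and 25.1 FPKM in the E18.5d hearts, 32.9, 33.6 and 32.5 FPKM in the P1d hearts and 30.3, 29.98 and 32.4 FPKM in the P7d hearts, so that each postnatal heart was above each E18.5d heart. *Wwtr1* rose 1.25-fold at P1d (log2 change 0.31 ± 0.059, limma, adjusted p = 0.00239) and 1.17-fold at P7d (log2 change 0.22 ± 0.059, adjusted p = 0.0139), both against E18.5d. Both calls were lost on scaling to an equal sum (adjusted p = 0.299 and 0.204), and that at P7d without E18.5d replicate 3 (adjusted p = 0.0506) or P7d replicate 3 (0.0549). Without the 4 hearts with *Xist* the changes were 0.23 and 0.11, neither of which passed the test.

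The balance of both genes within a heart is not altered by a factor applied to a whole column, as in median of ratios or an equal sum. Quantile normalization is not such a factor and was not tried on the balance. *Yap1* made up 55.9% ± 1.58 (SD, n = 3) of the summed *Yap1* and *Wwtr1* FPKM at E18.5d, 45.8% ± 1.94 at P1d, then 45.8% ± 1.29 at P7d. The lowest E18.5d heart was at 54.4% and the highest postnatal heart at 47.9%, so *Yap1* was the higher of the pair in all 3 E18.5d hearts and the lower in all 6 postnatal hearts. The exact two-sided permutation test gave p = 0.1 for either postnatal stage against E18.5d, which is the smallest p that 3 hearts against 3 allow. Between P1d and P7d the share differed by -0.067 percentage points, less than the spread between hearts (exact permutation test, p = 1.0).

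Among the TEAD genes, which encode the DNA-binding part of the complex, *Tead1* (chr7:112679318-112906807, plus strand) was the highest at every stage and passed no test on the deposited scale. Its hearts ranged from 46.6 to 57.6 FPKM, and the stages overlapped. The interval of its change at P7d against E18.5d, -0.20 to 0.16 on the log2 scale, leaves room for a modest change in either direction. *Tead3* (chr17:28331671-28350817, minus strand) was at 5.36, 7.34 and 7.31 FPKM at E18.5d, 11.3, 11.3 and 9.44 FPKM at P1d and 5.48, 4.94 and 5.16 FPKM at P7d. All P1d hearts were above all others, whereas the E18.5d and P7d hearts overlapped. *Tead3* rose 1.60-fold at P1d (log2 change 0.61 ± 0.12, limma, adjusted p = 0.00226) and was 2.06-fold lower at P7d than at P1d (log2 change -0.91 ± 0.12, adjusted p = 3.02e-04). At P7d against E18.5d the log2 change was -0.30 and did not pass the test (adjusted p = 0.0578), but did without E18.5d replicate 1 (-0.43, adjusted p = 0.00789). Without the 4 hearts with *Xist* the changes were 0.48 to P1d and -0.85 from P1d to P7d (adjusted p = 0.128 and 0.0690).

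The paralogs *Tead2* and *Tead4* complete the family. *Tead2* held 41.1, 41.7 and 39.99 FPKM at E18.5d, 34.2, 40 and 37.1 FPKM at P1d and 19.98, 21.5 and 20.5 FPKM at P7d, which put all P7d hearts below all others. It fell 1.98-fold from E18.5d to P7d (log2 change -0.95 ± 0.066, limma, adjusted p = 6.24e-06). *Tead4*, the lowest of the family, was at 2.41, 2.1 and 2.45 FPKM at E18.5d, 1.42, 1.14 and 1.12 FPKM at P1d and 1.89, 2.2 and 1.93 FPKM at P7d, and its P1d hearts were the lowest. It fell at P1d (log2 change -0.58 ± 0.10, adjusted p = 0.00167) and was higher at P7d than at P1d (0.43 ± 0.10, adjusted p = 0.00799), the opposite order to *Tead3*.

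As shares of the summed FPKM of the 4 TEAD genes, *Tead1* stood at 52.1% ± 1.45 at E18.5d, 50.5% ± 3.65 at P1d, then 65.8% ± 1.66 at P7d. *Tead2* made up 39.3% ± 1.76, 37.5% ± 3.81 and 25.4% ± 1.44 at the same stages, so the larger share of *Tead1* at P7d went with a smaller one of *Tead2*. Whether the level of *Tead1* itself was higher at P7d depends on the scaling, since its log2 change from P1d was 0.10 on the deposited scale (limma, adjusted p = 0.360) and 0.23 with median of ratios (adjusted p = 0.0439). *Tead3* took 6.38% ± 0.971, 10.8% ± 0.677 and 6.37% ± 0.387. The P7d hearts did not overlap with either other stage in the shares of *Tead1* and *Tead2*, nor the P1d hearts in that of *Tead3* (exact permutation tests, p = 0.1 each, the smallest possible).

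**Figure D2:**
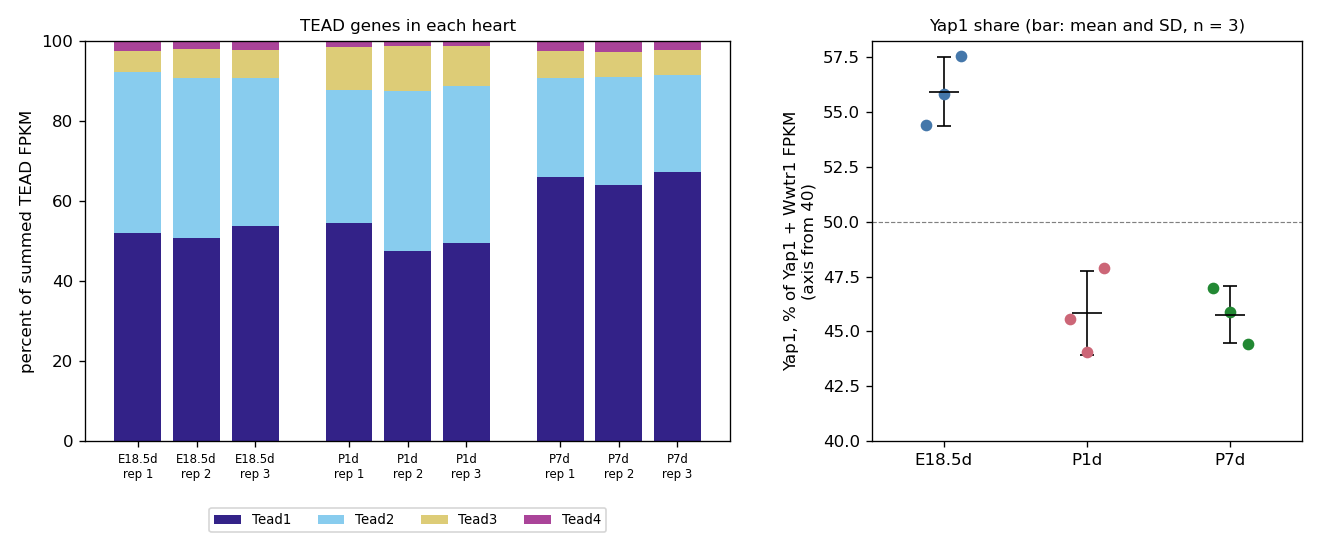
Left, percent of the summed FPKM of 4 TEAD genes (y axis) taken by each in each heart (1 stacked bar per heart). Right, *Yap1* as a percent of *Yap1* plus *Wwtr1* (y axis from 40) by stage, with points for hearts and bars for the mean and SD of 3 hearts. *Tead1* takes 64.0% to 67.3% in the P7d hearts, against at most 54.6% elsewhere, and *Yap1* is above the dashed line at 50% in the E18.5d hearts only.

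Of the kinases and adaptor among the 10 genes, *Lats1* and *Sav1* were not called and *Lats2* changed little. *Lats1* (chr10:7681214-7716460, plus strand) ranged over all hearts from 7.43 to 8.15 FPKM and passed no test, with an interval of -0.19 to 0.085 for its log2 change at P7d against E18.5d. *Lats2* (chr14:57689662-57758388, minus strand), itself a known YAP target, was at 18.8, 18.7 and 17.4 FPKM at E18.5d, 21.5, 21.8 and 20.9 FPKM at P1d and 18.6, 18.7 and 19.8 FPKM at P7d. Its P1d hearts were above all others, and it rose 1.17-fold at P1d (log2 change 0.22 ± 0.058, limma, adjusted p = 0.0131). This call was lost on scaling to an equal sum (adjusted p = 0.718) and with *Xist* as a covariate (0.0637). The decrease of *Lats2* from P1d to P7d (-0.16 ± 0.058, adjusted p = 0.0466) was at the edge of the threshold and was lost in most other fits, for example with median of ratios (adjusted p = 0.663). As a share of *Lats1* plus *Lats2*, *Lats1* made up 30.1% ± 0.962 at E18.5d, 26.5% ± 0.892 at P1d, then 28.4% ± 0.370 at P7d, with no overlap of hearts between any pair of stages (exact permutation tests, p = 0.1 each).

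*Sav1*, the adaptor of the MST kinases (chr12:69965012-69987002, minus strand), ranged from 16.1 to 18.6 FPKM. All its E18.5d hearts were above all postnatal ones, but the changes of -0.090 at P1d and -0.13 at P7d did not pass the test (limma, adjusted p = 0.227 and 0.0887). *Vgll4*, the cofactor that competes with YAP and TAZ for TEAD (chr6:114860628-114969994, minus strand), ranged from 24.9 to 29.1 FPKM and passed no test on the deposited scale. With an equal sum it was called lower at P1d than at E18.5d (log2 change -0.28, limma, adjusted p = 0.0448). Its log2 ratio to *Yap1* had a mean of -0.25 ± 0.062 (SD, n = 3) at E18.5d, -0.092 ± 0.10 at P1d, then 0.0078 ± 0.074 at P7d. The P7d hearts were all above the E18.5d hearts in this ratio (exact permutation test, p = 0.1), whereas the P1d hearts overlapped with both other stages.

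The target genes varied the most. *Ctgf*, which encodes the secreted matrix protein CCN2 (chr10:24595442-24598683, plus strand), was at 72.5, 65.3 and 76.1 FPKM at E18.5d, 256, 338 and 181 FPKM at P1d and 48.7, 76.3 and 87.2 FPKM at P7d. The lowest P1d heart lay far above the highest heart of either other stage, and the E18.5d and P7d hearts overlapped. *Ctgf* rose 3.62-fold at P1d (log2 change 1.80 ± 0.24, limma, adjusted p = 3.23e-04), which ranked 58th of the 13618 genes tested, and was 3.65-fold lower at P7d than at P1d (-1.85 ± 0.24, adjusted p = 3.44e-04). At P7d against E18.5d its log2 change was -0.050, with an interval of -0.59 to 0.49. At both E18.5d and P7d the pair of hearts with *Xist* had more *Ctgf* than the third heart, and no P1d heart had *Xist*. Without these 4 hearts *Ctgf* was still higher at P1d (1.92, adjusted p = 0.0466), and its change from P1d to P7d was -2.34 (adjusted p = 0.0538).

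*Cyr61*, which encodes the related protein CCN1 (chr3:145646976-145649981, minus strand), was at 18.6, 18.4 and 18.3 FPKM at E18.5d, 68.9, 52.8 and 40.7 FPKM at P1d and 24.1, 32.8 and 30.1 FPKM at P7d, with no overlap between the stages. It rose 2.94-fold at P1d (log2 change 1.47 ± 0.17, limma, adjusted p = 1.37e-04) and was then 1.87-fold lower at P7d than at P1d (-0.86 ± 0.17, adjusted p = 0.00319). Unlike *Ctgf*, *Cyr61* passed the test also at P7d against E18.5d (0.62 ± 0.17, adjusted p = 0.0140), a call lost without P7d replicate 2 (adjusted p = 0.0556). Without the 4 hearts with *Xist* its change to P1d was 1.48 (adjusted p = 0.0541). The log2 ratio of *Ctgf* to *Cyr61* had a mean of 1.95 ± 0.11 (SD, n = 3) at E18.5d, 2.24 ± 0.40 at P1d, then 1.26 ± 0.26 at P7d. The P7d hearts were below all others in this ratio (exact permutation tests, p = 0.1 each).

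Counted together, 5 of the 10 genes were called higher and 1 lower at P1d against E18.5d, beside 18.4% of all genes tested called higher and 27.6% called lower. At P7d against P1d 0 were called higher by limma (also 0 at an unadjusted p under 0.05) and 4 lower, *Ctgf*, *Tead3*, *Cyr61* and *Lats2*, beside a background of 15.5% higher and 28.6% lower. At P7d against E18.5d 2 were higher and 1 lower, beside a background of 12.5% higher and 36.9% lower. *Tead1*, *Lats1*, *Sav1* and *Vgll4* were called in no comparison on this scale. With median of ratios the counts were 5 higher and 1 lower at P1d against E18.5d, 1 higher (*Tead1*) and 3 lower at P7d against P1d, and 3 higher (*Lats2* added) and 0 lower at P7d against E18.5d (1 lower, *Yap1*, at an unadjusted p under 0.05). *Ctgf*, *Cyr61* and *Tead3* kept direction and call for both steps, up to P1d and down to P7d, under all 3 other scalings. With an equal sum 3 were higher and 2 lower (*Yap1* and *Vgll4*) at P1d against E18.5d, beside 8.6% and 34.5% of all genes.

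**Figure D3:**
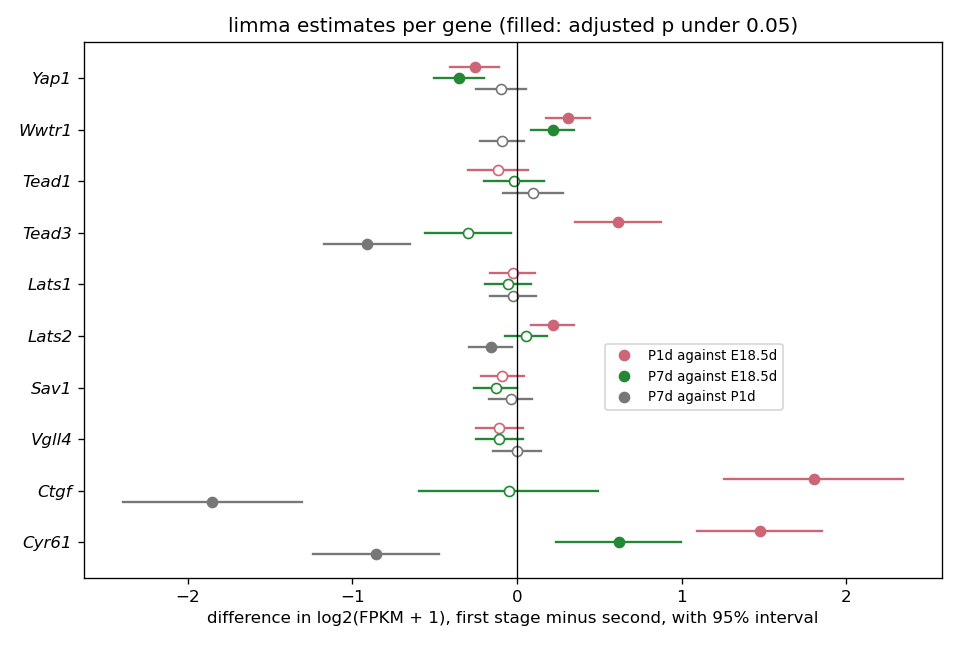
Change of each gene in log2(FPKM + 1) (x axis) between stages, with 95% intervals from limma. Filled points passed an adjusted p of 0.05. *Ctgf*, *Cyr61* and *Tead3* lie to the right at P1d against E18.5d and to the left at P7d against P1d, *Yap1* and *Wwtr1* lie on opposite sides of 0 in both comparisons with E18.5d, and all intervals of *Lats1* and *Vgll4* include 0.

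The wider set of YAP and TEAD targets did not follow *Ctgf* and *Cyr61* as a block. Of 22 genes known as a target signature of YAP and TEAD, which includes *Ctgf*, *Cyr61* and *Lats2*, 20 passed the filter on low values. At P1d against E18.5d 8 were higher and 3 lower, beside 18.4% and 27.6% of all genes, with a median log2 change of 0.15 against -0.06 over all genes. At P7d against E18.5d 4 were higher and 5 lower, beside 12.5% and 36.9% of all genes (median 0.09 against -0.17). At P7d against P1d 1 was higher and 7 lower, beside 15.5% and 28.6% (median -0.17 against -0.09). With median of ratios the first 2 counts became 10 higher and 2 lower each, where 23.7% and 22.2% of all genes were called at P1d and 23.3% and 18.7% at P7d. Scaling to an equal sum turned the median at P1d to -0.0091, beside -0.21 over all genes.

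*Amotl2* is the gene of an angiomotin that binds YAP at cell junctions and is also a YAP target. On the log2(FPKM + 1) scale its rise at P1d came next after those of *Ctgf* and *Cyr61* in this list. It held 30.8, 30.6 and 28.2 FPKM at E18.5d, 65.8, 70.5 and 52.6 FPKM at P1d and 33.2, 32.95 and 31.9 FPKM at P7d. Only its P1d hearts stood apart, with a rise of 2.11-fold (log2 change 1.04 ± 0.097, limma, adjusted p = 4.31e-05) and a decrease from P1d to P7d (-0.92 ± 0.097, adjusted p = 1.19e-04). *Gadd45a*, a gene induced by DNA damage and growth arrest, was at 0.6, 1.12 and 1.19 FPKM at E18.5d. At P1d its mean of 2.88 FPKM was 2.97-fold that at E18.5d (log2 change 0.98, limma, adjusted p = 8.71e-04), beside 2.94-fold for *Cyr61*. *Gadd45a* was at 4.46, 3.53 and 3.21 FPKM at P7d (log2 change 1.27 ± 0.16 against E18.5d, adjusted p = 1.84e-04). *F3*, which encodes tissue factor, rose over E18.5d at both P1d (log2 change 0.59) and P7d (0.58, adjusted p = 6.88e-04).

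Other targets went down. *Igfbp3*, which encodes a binding protein of insulin-like growth factors, was at 25.5, 25.2 and 21.8 FPKM at E18.5d, 25.6, 32.4 and 14.2 FPKM at P1d and 7.97, 7.5 and 7.86 FPKM at P7d. It fell 3.11-fold from E18.5d to P7d (log2 change -1.52 ± 0.23, limma, adjusted p = 6.20e-04), while its P1d hearts spread widely. *Rbms3*, the gene of an RNA-binding protein, fell at P1d (-0.41) and P7d (-0.60, adjusted p = 2.43e-04), as did the growth factor gene *Tgfb2* (-0.38 and -0.49), whose calls were lost with median of ratios and quantile normalization. *Dock5*, which encodes an activator of Rac, fell at P1d (-0.56, adjusted p = 0.00133), and *Arhgef17* was higher at P7d than at P1d (0.24, adjusted p = 0.0160). *Ankrd1*, a cardiac target and by far the most abundant of the list, held 556, 522 and 588 FPKM at E18.5d, 538, 516 and 334 FPKM at P1d and 307, 354 and 537 FPKM at P7d, and passed no test. It was named after its values were seen.

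**Figure D4:**
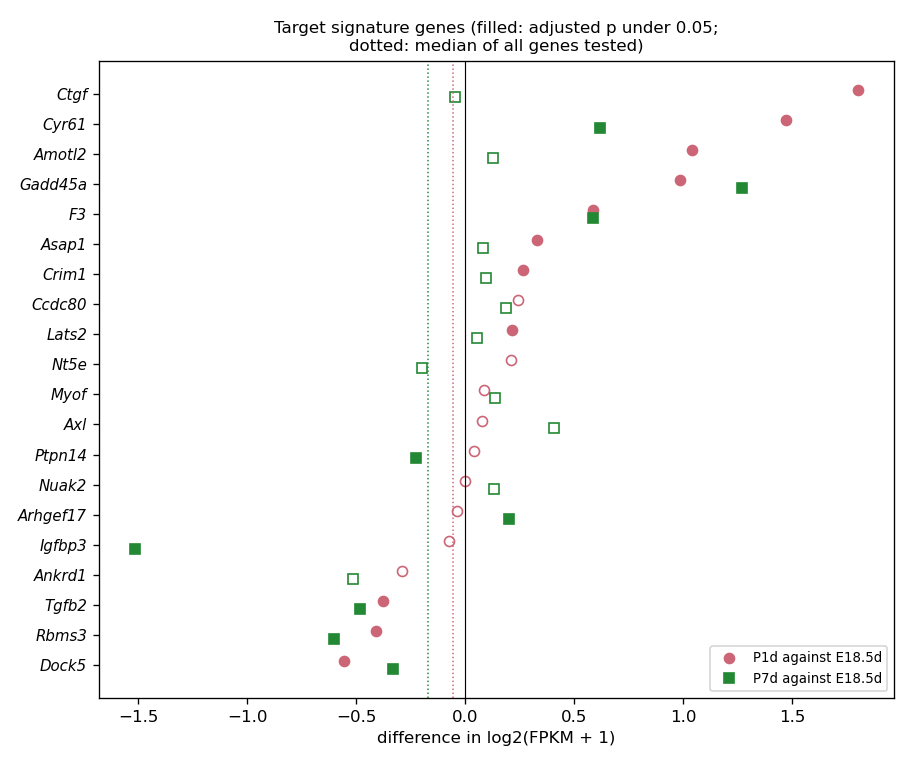
Change of 20 target signature genes in log2(FPKM + 1) (x axis) at P1d (circles) and P7d (squares) against E18.5d, ordered by the change at P1d. Filled symbols passed an adjusted p of 0.05 and dotted lines mark the medians of all genes, -0.06 at P1d and -0.17 at P7d. *Ctgf*, *Cyr61* and *Amotl2* lie farther right at P1d than at P7d, and *Igfbp3* is far left at P7d.

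TEAD proteins bind the letters GGAATG, or CATTCC on the other strand. The 250 bases before the start of transcription were searched for them in RefSeq sequences of GRCm38.p6, which held 8 of the 10 genes, without *Tead1* and *Ctgf*. At least 1 match was found for 6 of these 8 (75.0%), namely *Yap1*, *Wwtr1*, *Tead3*, *Sav1*, *Vgll4* and *Cyr61*, but not *Lats1* or *Lats2*. Of all genes with such sequence, 3880 of 27025 (14.4%) held a match in at least 1 of their windows, and of all windows 4153 of 32851 (12.6%). Genes with several starts have more windows, as *Tead3* with 3. In the target signature 6 of 15 genes with sequence held a match, among the upstream regulators 5 of 15 and in the core kinase module 1 of 11. A match describes the letters in the window and does not show binding.

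The windows of both coactivators and of *Cyr61* are shown because *Yap1* and *Wwtr1* moved in opposite directions, *Cyr61* rose the most of these 8 genes, and all 3 hold 1 match. They are given 5′ to 3′ on the strand of the gene, with the match in capitals, and end at the base before the start. The windows lie at chr9:8004597-8004846, chr3:57575911-57576160 and chr3:145649986-145650235, all on the minus strand, and the first base of the match is 141, 136 and 103 bases before the start. The 2 coactivator windows hold GGAATG and that of *Cyr61* holds CATTCC.
Yap1: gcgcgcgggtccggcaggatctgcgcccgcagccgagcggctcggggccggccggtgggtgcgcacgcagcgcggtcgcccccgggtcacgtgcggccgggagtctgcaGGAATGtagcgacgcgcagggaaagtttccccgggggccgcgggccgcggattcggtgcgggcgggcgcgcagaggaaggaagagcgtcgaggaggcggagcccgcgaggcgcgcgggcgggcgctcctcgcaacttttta
Wwtr1: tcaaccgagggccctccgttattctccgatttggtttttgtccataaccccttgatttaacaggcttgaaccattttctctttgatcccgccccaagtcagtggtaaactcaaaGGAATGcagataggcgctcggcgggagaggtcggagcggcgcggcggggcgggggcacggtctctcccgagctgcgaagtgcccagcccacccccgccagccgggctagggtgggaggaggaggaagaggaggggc
Cyr61: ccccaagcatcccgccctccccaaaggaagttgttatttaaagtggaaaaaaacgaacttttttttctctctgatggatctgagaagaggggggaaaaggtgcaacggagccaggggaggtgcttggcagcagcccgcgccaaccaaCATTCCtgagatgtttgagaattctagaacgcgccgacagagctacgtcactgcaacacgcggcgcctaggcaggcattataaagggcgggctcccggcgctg

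The other genes of the kinase module changed in both directions. Of 14 such genes beside *Lats1*, *Lats2* and *Sav1*, 13 passed the filter. At P1d against E18.5d 4 were higher and 2 lower, at P7d against E18.5d 3 and 3, and at P7d against P1d 2 and 4. The same shares of all genes apply, 18.4% and 27.6%, 12.5% and 36.9%, and 15.5% and 28.6%, and the counts at P7d against P1d lie near them. The median changes were 0.0051, -0.020 and 0.029, beside -0.06, -0.17 and -0.09 over all genes. *Stk3*, the gene of the Hippo kinase MST2, was at 7.99, 8.84 and 10.04 FPKM at E18.5d, 7.11, 6.84 and 7.07 FPKM at P1d and 5.24, 4.77 and 5.65 FPKM at P7d. The stages did not overlap, and *Stk3* fell 1.72-fold from E18.5d to P7d (log2 change -0.68 ± 0.090, limma, adjusted p = 2.80e-04). Its paralog *Stk4* (MST1) ranged from 8.79 to 11.8 FPKM and passed no test. *Mob1a*, which encodes the coactivator of the LATS kinases, was at 22.4, 21.1 and 20.2 FPKM at E18.5d, 13.02, 12.6 and 13.3 FPKM at P1d and 16.7, 14.04 and 16.97 FPKM at P7d. It was lowest in the P1d hearts, with a log2 change of -0.67 ± 0.079 (adjusted p = 1.58e-04).

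The MAP4K kinases act beside MST on LATS. *Map4k2* was higher than at E18.5d at both P1d (0.48, limma, adjusted p = 0.0344) and P7d (0.60, adjusted p = 0.0128), and so was *Map4k4* (0.26 and 0.28). *Map4k5* rose at P1d (0.38, adjusted p = 0.00273) and was lower again at P7d (-0.30 against P1d), as was *Map4k3* (-0.31 against P1d). Of the related kinases, *Mink1* rose (0.28) and *Tnik* fell (-0.27) from E18.5d to P7d, the latter under none of the 3 other scalings. *Taok2*, a kinase upstream of MST, was higher at P7d than at P1d (0.28, adjusted p = 0.00658). The rises of *Map4k2*, *Map4k4* and *Map4k5* at P1d did not pass the test on scaling to an equal sum, nor those of *Mink1* and *Map4k4* at P7d, and the decreases of *Map4k3* and *Map4k5* from P1d to P7d passed under none of the 3 other scalings.

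Among 21 regulators and scaffolds upstream, of which 20 were tested, 5 were higher and 4 lower at P1d against E18.5d, 2 and 6 at P7d against E18.5d, and 2 and 9 at P7d against P1d, beside the same shares of all genes, to which the counts at P7d against E18.5d are close. Their median changes were 0.0087, -0.18 and -0.11, the last 2 near the -0.17 and -0.09 of all genes. With median of ratios the count at P7d against E18.5d turned to 6 higher and 1 lower, beside 23.3% and 18.7% of all genes. *Dchs1*, the gene of a cadherin that is the ligand of FAT4, was at 16.7, 16.1 and 14.8 FPKM at E18.5d, 11.3, 12 and 13.9 FPKM at P1d and 21.6, 22.1 and 21.4 FPKM at P7d, with no overlap between the stages. Its lowest hearts were at P1d and its highest at P7d (log2 change P7d against P1d 0.76 ± 0.080, limma, adjusted p = 1.16e-04). *Amotl1*, a second angiomotin, was 1.89-fold lower at P7d than at P1d (-0.87 ± 0.14, adjusted p = 9.43e-04) and also lower than at E18.5d (-0.45), the latter not with median of ratios or quantile normalization. *Limd1*, whose LIM protein binds LATS, rose at P1d (0.25, not on scaling to an equal sum) and was lower at P7d than at P1d (-0.56, adjusted p = 4.40e-04).

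*Strn* and *Strn3*, which encode subunits of the STRIPAK phosphatase complex that acts on MST, fell from E18.5d to P7d (-0.59 and -0.36), *Strn3* not with median of ratios or quantile normalization. *Nf2*, which encodes the tumour suppressor merlin, was higher at P7d than at P1d (0.22, adjusted p = 0.0193), though not on scaling to an equal sum. *Rassf1*, which encodes a scaffold of MST, fell at P1d (-0.40, limma, adjusted p = 0.0207). *Csnk1e*, the gene of a kinase that marks YAP for degradation, rose at P1d (0.29), and *Frmd6*, the gene of a FERM-domain scaffold, rose from E18.5d to P7d (0.16), both with the same exception. Of the other TEAD and VGLL genes, *Vgll1* and *Vgll2* were below the filter, and *Vgll3* passed no test.

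**Figure D5:**
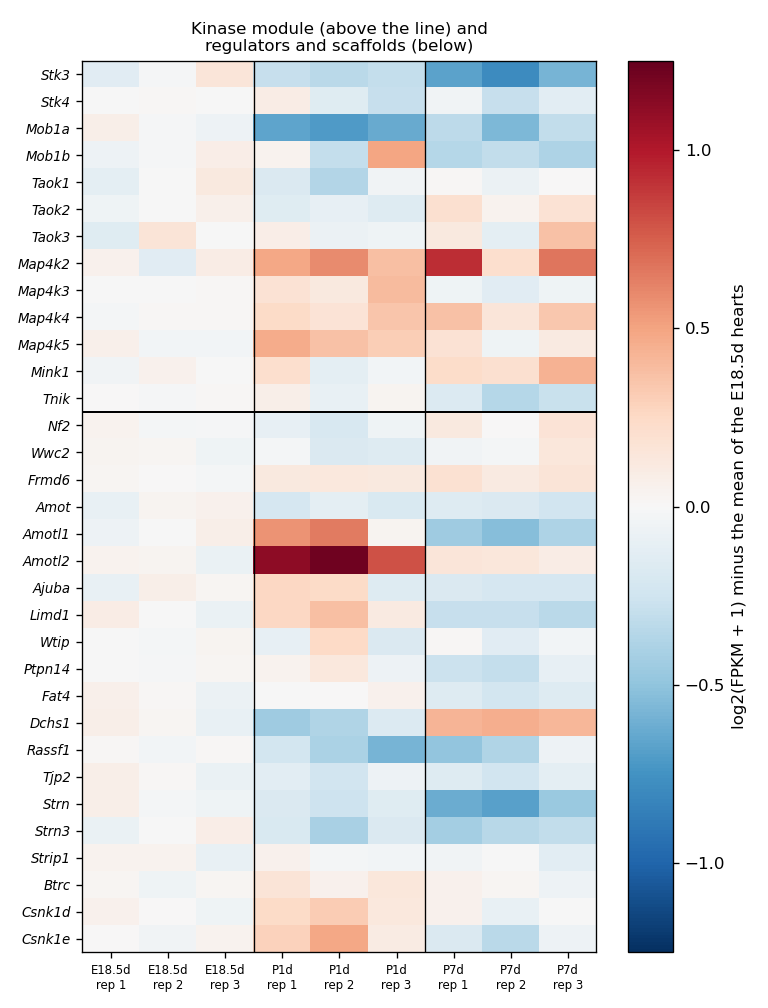
Difference of each heart from the mean of the E18.5d hearts in log2(FPKM + 1) (colour, red higher and blue lower) for 13 kinase module genes above the black line and 20 regulators and scaffolds below it, with 1 column per heart. *Amotl2* in the P1d hearts holds the largest difference, 1.21, *Mob1a* is blue at P1d, *Stk3* and *Strn* are bluest at P7d, and *Dchs1* turns from blue at P1d to red at P7d.

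For each of the 10 genes the other genes with the most similar course over the 9 hearts were found by Pearson's r of log2(FPKM + 1). These r describe the 9 hearts, which share their 3 stages. The genes most like *Ctgf* were *Abra* (r = 0.990) and *Cdc42ep4* (0.989), those most like *Cyr61* were *Mtfr1l* (0.985) and *Xirp1* (0.979), and those most like *Tead3* were *Tax1bp1* (0.982) and *Zrsr1* (0.980). *Gap43* was most like *Yap1* (0.988), *Nlrx1* (0.975) and *Pxn* (0.973) most like *Wwtr1*, and *Rtf2* most like *Lats2* (0.984). For the genes that varied least the closest partner reached 0.917 (*Thap6* for *Tead1*), 0.942 (*Gm12854* for *Lats1*), 0.949 (*Hars2* for *Vgll4*) and 0.964 (*Mycbpap* for *Sav1*).

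In whole hearts, fewer cells of a type and less RNA per cell cannot be told apart, and several marker sums moved with the stages. The 5 proliferation markers summed to 251 to 263 FPKM at E18.5d, 55.9 to 75.3 FPKM at P1d and 113 to 124 FPKM at P7d, lowest where *Ctgf* and *Cyr61* were highest. All 5 were called lower at P1d than at E18.5d, beside 27.6% of all genes. The 5 macrophage markers summed to 42.2 to 55.4 FPKM at E18.5d and 62.4 to 92.0 FPKM at P1d, with 4 of 5 called higher, beside 18.4% of all genes. The 7 fibroblast markers summed to 1354 to 1395 FPKM at E18.5d, 1063 to 1403 FPKM at P1d and 1554 to 1619 FPKM at P7d. The summed 4 epicardial markers went from 44.4 to 54.2 FPKM at E18.5d to 22.9 to 27.3 FPKM at P7d, beside the decrease of *Tead2*. Of these markers 3 of 4 were called lower, where 36.9% of all genes were. Sums of the 6 endothelial markers were 342 to 375 FPKM at E18.5d, 388 to 426 FPKM at P1d and 441 to 459 FPKM at P7d. Not all of them rose, with 2 called higher and 1 lower at P1d (18.4% and 27.6% of all genes), and 4 and 1 at P7d (12.5% and 36.9%), both against E18.5d. Sums of the 6 smooth muscle and pericyte markers and the 4 erythroid markers overlapped between E18.5d and P1d. Of the former, 2 were called higher and 3 lower at P7d against E18.5d, beside the same shares. The 7 cardiomyocyte markers summed to 25189.7 to 26644.7 FPKM at E18.5d, 29992 to 33657 FPKM at P1d and 31380.1 to 32192 FPKM at P7d, so every postnatal heart was above every E18.5d heart. Of these markers 4 were called higher and 0 lower at P1d against E18.5d, and 4 and 1 at P7d against E18.5d (limma). The shares of all genes were 18.4% and 27.6% at P1d, and 12.5% and 36.9% at P7d. No marker of these cell types was at 0 in any heart. Their part in the changes of the 10 genes was not tested.

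Some of the values may hold reads of overlapping genes, since the library kit does not mark strand. *Ctgf* shares 665 exon bases with the antisense gene *Gm15270*, listed at up to 3.18 FPKM, and *Sav1* 1336 bases with *Atl1* on the other strand, at up to 4.34 FPKM. *Lats2* shares 2955 bases with the protein-coding gene *Gm49361* on the same strand. *Gm49361* was not found among the deposited genes, so its level is not known. *Yap1* shares 116 bases with *Gm20416*, at up to 0.17 FPKM.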

How the data were processed

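RNA of 9 mouse hearts was sequenced from libraries made with the NEBNext Ultra RNA kit. The authors deposited FPKM, rounded to 2 decimals, of 48820 genes in 1 column per heart. Per the submitters' processing notes STAR and GRCm38/mm10 were used. The counting tool, annotation and versions are not given in the sources used here. Gene names and positions came from GENCODE M21, which held 48144 of the identifiers when their version was ignored. Hearts were grouped by the stage in their labels. Genes averaging 1 FPKM or more over the 9 hearts (13618) were fitted on log2(FPKM + 1), a scale that understates changes of low genes, with limma 3.58.1 in R 4.3.3 (all 3 stages in 1 fit, eBayes with trend, no covariate), adjusted by Benjamini-Hochberg over these genes with a threshold of 0.05. Fold changes are ratios of mean FPKM. If replicates were not separate animals, p-values measure only the spread between these samples.

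Shares and ratios were compared with exact two-sided permutation tests in Python 3.11.15. Depth was estimated from the steps between low FPKM values, 533 to 1070 per heart, drawn from 9571 genes. At the chosen depth and length 90.1% to 92.5% of these values were whole within 0.15. The median over all depths and lengths tried was 24.1% to 25.5%. The estimate covers counting only. On simulated data for P7d against E18.5d with 13618 genes, 68 of 100 genes changed by a log2 of 0.5 and 96 of 100 changed by 1 were recovered, beside 3 unchanged genes. Only the simulated P7d hearts were changed, so P1d against E18.5d held no changed gene, and 0 genes were called there. P7d against P1d gave 67 and 94 of 100, beside 9 unchanged genes. The changed genes, 200 in all, were drawn only from genes with a mean above 3 on the log2(FPKM + 1) scale. Far more genes were called in the real data, so these rates need not hold there, nor for low genes. Promoter windows were taken from RefSeq. Named were all 10 genes, *Tead2*, *Tead4* and markers. Further named were up to 3 of the largest changes per direction, list and comparison among genes past the threshold without overlap of hearts. Of the 2 genes most like each of the 10, 1 or both were named. The 10 genes and all lists were chosen with earlier results of these data known. As alternatives, a pseudocount of 0.1, a filter at 5 FPKM or none, scaling by median of ratios, quantiles or an equal sum, fits of 2 stages, the replicate number as a block, *Xist* above 1 FPKM as a covariate and leaving out each heart were tried. Leaving out the 4 hearts with *Xist* was chosen after seeing the data, and a lone heart is then assumed to vary like the other stages.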

Additional observations from a re-analysis of the deposited data

How the results depend on the processing

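Most of the small changes turned with the scale of the columns. For P7d against E18.5d, 6 uncalled decreases turned to increases with median of ratios and quantile normalization: *Tead1* to 0.19 and 0.12, *Lats1* to 0.13 and 0.095, *Sav1* to 0.071 and 0.0060, *Vgll4* to 0.096 and 0.038, *Ctgf* to 0.16 and 0.068, and *Tead4* to 0.0023 and 0.016. That of *Tead3* stayed a decrease (-0.12 and -0.16). *Lats1* at P1d against E18.5d turned to 0.042 and 0.065. For P7d against P1d the same happened with median of ratios, quantile normalization and an equal sum: *Yap1* to 0.032, 0.019 and 0.029, *Wwtr1* to 0.036, 0.012 and 0.033, *Lats1* to 0.092, 0.031 and 0.088, *Sav1* to 0.087, 0.064 and 0.084, and *Vgll4* to 0.13, 0.12 and 0.13. *Vgll4* also turned with *Xist* as a covariate (0.079) and without the 4 hearts with *Xist* (0.12), as did *Tead1* (0.0070) and *Lats2* (-0.011) at P7d against E18.5d without these hearts. None of these values passed the test.

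Of the 10 genes, those called higher at P7d against E18.5d numbered 1 with an equal sum and 0 without the 4 hearts with *Xist*, and those called lower 0 with median of ratios and 0 without the 4 hearts. At P1d against E18.5d an equal sum gave 3 higher and 2 lower, and leaving out the 4 hearts 1 higher and 0 lower. At P7d against P1d median of ratios gave 1 higher, and leaving out the 4 hearts 0 lower. At an unadjusted p under 0.05 leaving out the 4 hearts gave 0 higher and 1 lower at P7d against E18.5d, 3 and 1 at P1d, and 0 and 3 at P7d against P1d (limma). Of the 54 tested genes of all lists but the markers, 9 were higher and 14 lower at P7d against E18.5d (12.5% and 36.9% of all genes), 16 and 10 at P1d against E18.5d (18.4% and 27.6%), and 6 and 19 at P7d against P1d (15.5% and 28.6%). These counts became 20 higher and 5 lower, and 12 and 11, with median of ratios for the comparisons of P7d with E18.5d and P1d (23.3% and 18.7%, and 23.5% and 18.2% of all genes). With quantile normalization they were 18 and 6, and 12 and 11 (21.2% and 21.4%, and 21.3% and 20.2% of all genes). At P1d it gave 20 higher and 6 lower (23.5% and 22.6%). An equal sum gave 5 higher and 13 lower at P1d (8.6% and 34.5% of all genes). At P7d against P1d it gave 6 higher and 9 lower (16.1% and 12.7%), and at P7d against E18.5d 6 and 11 (9.28% and 32.6%). With *Xist* as a covariate 6 were higher and 5 lower at P1d, where 1607 and 2893 of all 13618 genes were called. At P7d against P1d 2 were higher and 11 lower, beside 1467 and 2438 of all genes. Without the 4 hearts 0 were higher and 0 lower at P7d against E18.5d, 2 and 1 at P1d, and 0 and 0 at P7d against P1d, where limma called 103 higher and 120 lower, 246 and 576, and 75 and 109 of all genes.

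Leaving out 1 heart at a time gave 1 to 2 of the 10 genes higher and 1 to 2 lower at P7d against E18.5d, and 0 to 2 lower at P1d. For the lists it gave 9 to 18 lower at P7d against E18.5d, and 9 to 16 higher and 6 to 10 lower at P1d. Uncalled changes then crossed 0 for *Tead1* (-0.062 to 0.022) and *Ctgf* (-0.22 to 0.19) at P7d against E18.5d, and for *Lats1* (-0.048 to 0.0081) and *Vgll4* (-0.060 to 0.036) at P7d against P1d.

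Deviations of same-numbered hearts from their stage means correlated at -0.055 to 0.11 over genes. These values do not show whether such hearts shared more than a number, which the labels do not say. A replicate block gave 1706 higher and 4961 lower genes at P7d against E18.5d and, of the 10 genes, changed only the call of *Lats2* at P7d against P1d (-0.16, adjusted p = 0.0731). In all, 1242 changes of single genes under an alternative kept direction and call, 183 lost the call, 9 gained it and 41 changed sign. All 126 checks of shares and ratios stayed within the SD between hearts. Where a heart was left out, no other outcome was possible, since this moves the mean of a stage by less than its SD. Such checks therefore do not show how stable the shares and ratios are.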
